A study of Mus musculus with 4 samples.

Results

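The flavin-containing monooxygenase (FMO) genes Fmo1, Fmo2, Fmo4 and Fmo5 were examined in livers of mice with diet-induced obesity (DIO mice). The mice had received saline or GALP, galanin-like peptide, a neuropeptide made in the hypothalamus, through the nose. All non-control probes that carry one of these 4 gene names were taken, which gave 9 probes of the 41174 on the array. The probes were chosen by gene name, but the family itself was selected on its GALP over control ratios in these arrays, which were already known. All ratios of its genes are therefore given as a description, and no test over the pools is given for a member. The p-values that the scanner software gave for single arrays enter only as a part of the selection rule of the methods, and nothing is read from the resulting calls of members. Other genes of the family were not analysed here.

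Male C57BL/6J mice, 8 weeks old when purchased, received a high-fat diet for 14 weeks until they weighed at least 40 g. The GALP groups received porcine GALP (1 nmol, in saline with 5% α-cyclodextrin) and the control group received saline, in 2 µL once daily for 11 days, while the high-fat diet continued. The sources used here do not say whether the control saline held α-cyclodextrin. If it did not, GALP and α-cyclodextrin cannot be told apart in the ratios. RNA was pooled before labelling. The first pool held 4 GALP-treated mice whose weight loss was greater, another held 4 whose weight loss was less, and the control pool held 8 mice, so the spread between mice was not measured and each weight loss group is 1 pool. Both GALP pools were compared with the control pool on 2 dual-colour Agilent arrays each, a dye swap in which GALP carried Cy5 on 1 array and Cy3 on the other.

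The arrays of a pool carry the same extracts and were averaged, so a mean ± SD describes n = 2 pools. The control is 1 pool, and its own spread enters no SD. In the labels the control channel bears a weight loss group as well, whereas the paper describes a single control pool. All 4 arrays lie on 1 slide. In each channel, 40.5% to 46.7% of spots were well above background. Precision is limited by the number of pools. Each ratio is the log2 of GALP over control from the dye-normalized signals of the authors' Feature Extraction files.

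FMO enzymes sit in the membrane of the endoplasmic reticulum and carry a bound FAD. They take electrons from NADPH and add an oxygen atom to nitrogen or sulfur atoms of drugs, amines and thiols, beside the cytochrome P450 system. FMO1 has a broad range of substrates, FMO2 is best known from the lung, FMO4 is the least studied form, and FMO5 is abundant in liver and is known for oxidising ketones to esters.

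On the array, Fmo4, Fmo1 and Fmo2 lie in this order on chromosome 1 and Fmo5 lies on chromosome 3 (mm9, as the files give it). Probes are numbered here within a gene by falling mean signal. The Fmo4 probe (A_52_P471282) lies at chr1:164724109-164724168 and Fmo1 probe 1 (A_52_P508991) at chr1:164760037-164760096, 35868 bases further on. Fmo2 probe 1 (A_51_P301998) lies at chr1:164806827-164806886, and Fmo2 probe 2 (A_52_P273891) at chr1:164805530-164805589 is separated from it by 1237 bases. The Fmo5 probes lie at chr3:97456100-97456159 (probe 1, A_51_P468005), chr3:97456171-97456230 (probe 2, A_52_P460767) and chr3:97457388-97457447 (probe 3, A_52_P1147453). The files name no exon for any of them. The RefSeq transcripts given for 7 of the 9 probes matched the same gene symbol in the RefSeq table (GRCm38.p6), and the remaining 2 carry Ensembl transcripts.

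The first 30 bases of the 60-base probes are shown for the probes on which the values of each gene rest, together with the Fmo2 probe that had no signal, as the 3 Fmo2 probes gave different results.
Fmo2 probe 1: cttctttttccaacttcaggggttttaatc
Fmo2 probe 2: acattataggtaagaaaagcaaatctcagc
Fmo2 probe 3: tcagatcatcttgaattatacttggaatta
Fmo1 probe 1: gatctaactggcttttcaaatgtatggagt
Fmo4 probe 1: ttcttgaattggtacaaggtaagctaccga
Fmo5 probe 1: cttcatcatctttgtatgtcattagcaggg
The longest run of bases that a whole probe shared with a probe of another of these genes was 7 to 9 bases. The GC content of the probes was between 35.0% and 45.0%.

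Fmo2 had the largest ratios of these genes, close to 2-fold at both of its probes with signal. At probe 1 the control signal was 473 and 512 on the arrays with GALP in Cy5, and 308.1 and 308.2 on those with GALP in Cy3. The GALP signal of the same probe was 690.4 and 689.7 for greater weight loss, and 781 and 845 for less. All GALP signals lay above all control signals. The log2 ratio of probe 1 was 0.85 in the greater and 1.03 in the less weight loss pool, with a mean of 0.94 ± 0.13 (SD, n = 2 pools), a 1.92-fold difference. Since whole liver was measured, more cells that express a gene and more RNA per cell cannot be told apart.

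At Fmo2 probe 2 the control signals were 91.2, 94.7, 102 and 140.4, and the GALP signals were 228, 159, 274 and 186 on the same arrays. Again all GALP signals lay above all control signals. The log2 ratio was 1.03 with greater and 0.92 with less weight loss, with a mean of 0.97 ± 0.08 (SD, n = 2 pools), a 1.97-fold difference. The probes thus ordered the pools in opposite ways, with a difference between greater and less weight loss of -0.18 at probe 1 and 0.12 at probe 2. Each weight loss group is 1 pool, so the difference between the groups was not tested.

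**Figure D1:**
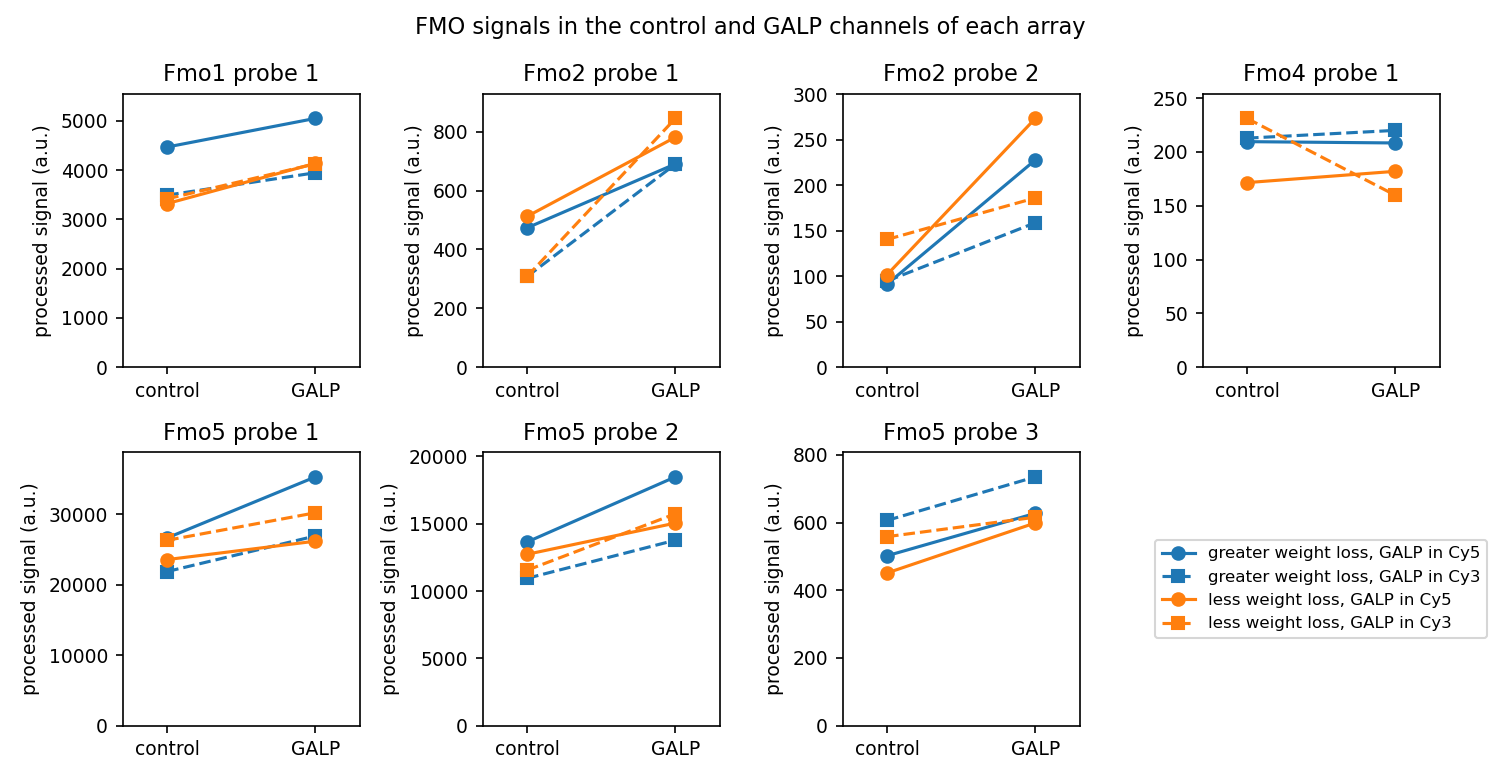
Processed signal (arbitrary units, linear axes from 0) of the 7 FMO probes with signal in the control and GALP channels of each array. A line joins the channels of 1 array, in blue for the pool with greater and in orange for the pool with less weight loss, with solid lines for GALP in Cy5 and dashed lines for GALP in Cy3. The GALP and control signals do not overlap for the Fmo2 probes and Fmo5 probe 2.

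The Fmo2 ratio depended on the dye orientation, and the probes did so in opposite directions. At probe 1 the log2 ratio was 0.54 and 0.61 with GALP in Cy5, and 1.16 and 1.46 with GALP in Cy3. At probe 2 it was 1.32 and 1.43 with GALP in Cy5, and 0.75 and 0.41 with GALP in Cy3. The differences between orientations were -0.62 and -0.85 at probe 1 and 0.58 and 1.02 at probe 2, in the greater and less weight loss pool in this order. Over the 14445 probes well above background in all 8 channels, the median absolute difference between orientations was 0.18 and 0.22 in the same pools, and its 95th percentile was 0.65 and 0.76. The means over both orientations of probes 1 and 2 lay 0.94 and 0.97 above 0.

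The methods select genes with a Feature Extraction p-value under 0.01 that changed in both groups, and the changes listed are folds over 1.5 or under 0.75. The p-value compares the extracts of 1 array. Read strictly, with the p-value under 0.01 and the same direction on all 4 arrays and the fold in both pools, this rule called 0 of the 9 FMO probes higher and 0 lower. Of all 41037 probes with a value on all 4 arrays, 0.0585% were called higher and 0.132% lower. Fmo2 probes 1 and 2 met the rule for the fold and the direction, but only 3 of 4 arrays gave each a p-value under 0.01. With the p-value asked for on at least 1 array of each pool, 2 of the 9 FMO probes were called higher and 0 lower, against 0.129% and 0.407% of all probes. With no p-value asked for, the same 2 were called higher and 0 lower, against 0.375% and 0.877%. Taken alone, the greater weight loss pool met the strict rule at Fmo2 probe 2 and the less weight loss pool at Fmo2 probe 1. This looser rule called 122 of all 41037 probes higher in the greater and 96 in the less weight loss pool, against 24 with both pools.

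The size of the Fmo2 ratio also depended on the background correction. With normexp correction (offset 50) and loess normalization of the median signals, the log2 ratio was 0.52 at probe 1 and 0.31 at probe 2, below the fold of 1.5. With an offset of 0 in place of 50 it was 0.84 and 0.88. The offset adds a constant to both channels and pulls the ratios of dim probes toward 0.

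Fmo2 probe 3 (A_52_P1138659, chr1:164818301-164818360), designed on a separate Ensembl transcript, was well above background in 0 of 4 GALP and 0 of 4 control channels. Its signals were 7.24 to 15.8 in all channels, and no fold is given. The Fmo2 difference therefore rests on the other 2 probes.

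**Figure D2:**
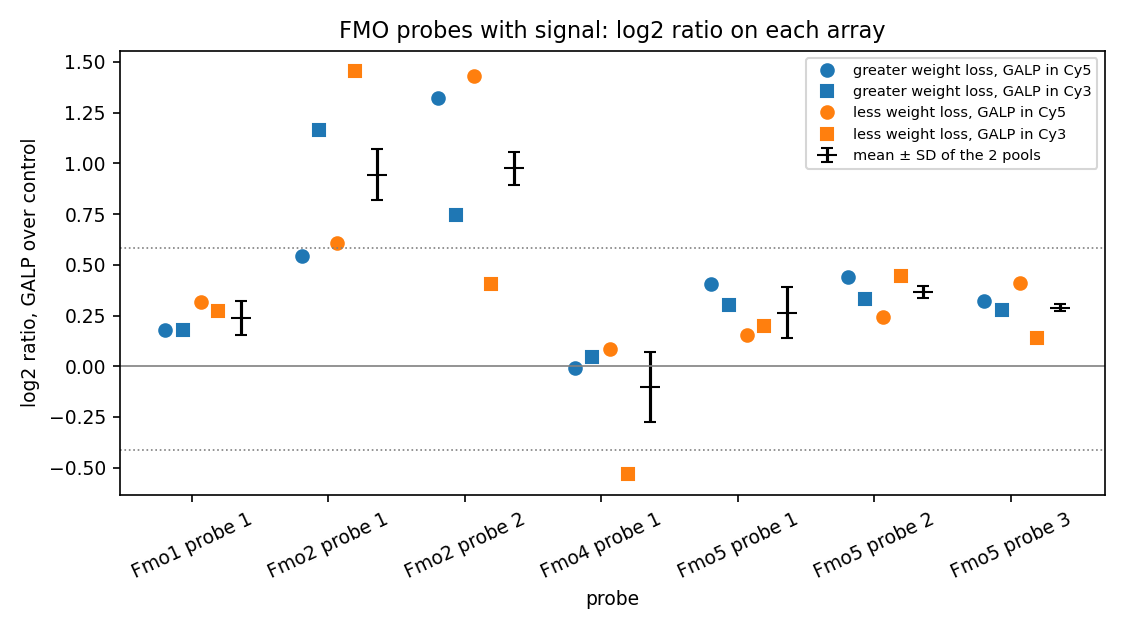
Log2 ratio of GALP over control for the 7 FMO probes with signal on each of the 4 arrays. Circles have GALP in Cy5 and squares GALP in Cy3, black bars are the mean ± SD of the 2 pools, and dotted lines mark folds of 1.5 and 0.75. Both Fmo2 probes have means near 1 and a wide spread between dye orientations, whereas Fmo1 probe 1 has a narrow one.

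Fmo5, the isoform abundant in liver, had small positive ratios on every array at all 3 of its probes. At probe 1 the control signals were 26645, 21875, 23569.5 and 26308 and the GALP signals 35308, 26921, 26184 and 30214. Its log2 ratios on the single arrays were 0.41 and 0.30 in the greater and 0.15 and 0.20 in the less weight loss pool, with a mean of 0.26 ± 0.13 (SD, n = 2 pools), a 1.20-fold difference. The control and GALP signals of probe 1 overlapped between arrays, although the GALP signal was the higher one within each array.

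Fmo5 probe 2 lies 11 bases from probe 1. Its control signals were 10947 to 13648 and its GALP signals 13782 to 18485, without overlap. Its log2 ratios were 0.38 with greater and 0.34 with less weight loss, with a mean of 0.36 ± 0.03, a 1.29-fold difference. The third probe, with control signals of 451 to 607 and GALP signals of 599 to 735, had 0.30 and 0.28 with a mean of 0.29 ± 0.02. The means of the Fmo5 probes thus lay between 0.26 and 0.36, and 0 of 4 arrays gave any of them a p-value under 0.01.

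Fmo1, the form with a broad range of substrates, had a positive ratio on every array. Probe 1 had control signals of 4469, 3492, 3321 and 3417 and GALP signals of 5051, 3947, 4138 and 4129. The groups overlapped, since the control signal of 1 array was above the GALP signals of the other 3 arrays. The log2 ratios were 0.18 and 0.18 in the greater and 0.32 and 0.27 in the less weight loss pool, with a mean of 0.24 ± 0.08 (SD, n = 2 pools), a 1.18-fold difference. The dye orientations differed by 0.04 at most. Fmo1 probe 2 (A_52_P408245, chr1:164761709-164761768) was not well above background in any channel, with signals of 5.29 to 11.9, and gives no fold.

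Fmo4 had no common direction. Its control signals were 210, 213, 171 and 231 and its GALP signals 208, 220.007, 182 and 160. Its log2 ratios were -0.01 and 0.05 in the greater and 0.09 and -0.53 in the less weight loss pool, so the value of the latter pool came from the array with GALP in Cy3. The mean was -0.10 ± 0.17 (SD, n = 2 pools), within the spread of the pools, and its sign differed between the dye orientations, with 0.04 for GALP in Cy5 and -0.24 for GALP in Cy3.

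Of the 7 FMO probes with signal in all 8 channels, 6 had a ratio above 0 on all 4 arrays, against 11.8% of the 14445 probes with such signal, and 0 had one below 0 on all 4, against 16%. The 6 are those of Fmo1, Fmo2 and Fmo5, and the probes of a gene are not independent of each other. The GALP signals lay above all control signals for 3 of the 7 probes and below them for 0, against 2.6% and 2.43% of these 14445. The median log2 ratio of the 7 probes was 0.29, and that of all probes with signal was -0.02. A mean log2 ratio at or above that of Fmo2 probe 1 was found for 0.111% of the probes with signal. The share was 5.79% for Fmo5 probe 1, 7.24% for Fmo1 probe 1 and 71.5% for Fmo4. The family was selected on its ratios in these arrays, so these shares only describe where its probes lie. By limma over the 2 pools, an adjusted p under 0.05 was reached by 0 of 41037 probes in either direction, while 2049 higher and 2710 lower ones had an unadjusted p under 0.05.

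**Figure D3:**
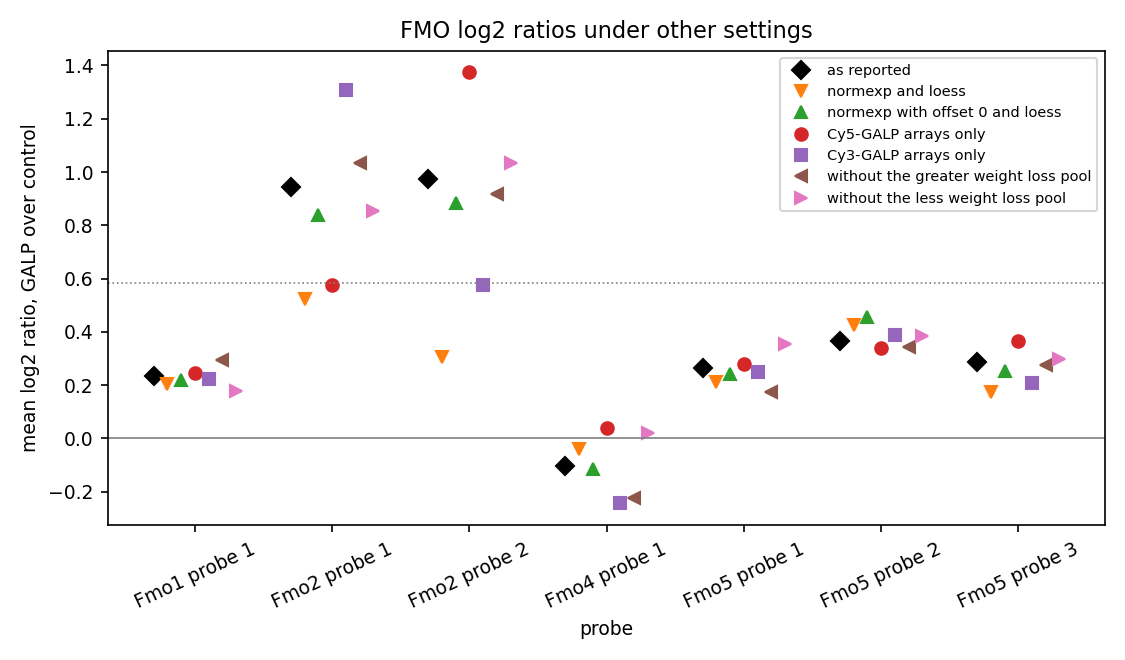
Mean log2 ratio of GALP over control for the 7 FMO probes with signal, as reported (black diamonds) and under 6 other settings. The dotted line marks a fold of 1.5. The Fmo2 probes range from 0.31 to 1.37 over the settings, and Fmo4 lies on both sides of 0.

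Genes that act beside the FMO enzymes were examined in lists with the brightest probe of each gene, and the strict rule called 1 of them. Por encodes the flavoprotein that passes electrons from NADPH to the cytochromes P450. Its log2 ratio was 0.89 with greater and 0.88 with less weight loss, with a mean of 0.88 ± 0.00 (SD, n = 2 pools), a 1.84-fold difference, and it lay between 0.87 and 0.89 on the single arrays. The control signals of Por were 3969 to 5201 and its GALP signals 7371 to 9573. Unlike at Fmo2, the dye orientation hardly moved this ratio. It was the only called gene of the 16 other oxidoreductases of xenobiotic and amine metabolism on the array, all with signal, whose median was -0.01. Of these, 8 had a mean above 0.

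Of the 12 transcription factors chosen as regulators or partners of regulators of FMO genes, 0 were called. In this list 11 had signal in all 8 channels, with a median log2 ratio of 0.09. The largest were the oestrogen receptor gene Esr1 with -0.27 ± 0.07, the xenobiotic receptor gene Nr1i3 with 0.23 ± 0.17, and the hepatocyte factor gene Hnf4a with 0.16 ± 0.09 (SD, n = 2 pools).

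The 4 genes of flavin supply, which provide the FAD that FMO enzymes carry, included 0 called ones. The riboflavin transporter gene Slc52a2 had -0.26 ± 0.09, the FAD synthase gene Flad1 -0.08 ± 0.01 and the riboflavin kinase gene Rfk -0.02 ± 0.08 (SD, n = 2 pools). These are the 3 with signal in all 8 channels. The riboflavin transporter gene Slc52a3 was well above background in 4 of 4 GALP but 1 of 4 control channels, and its log2 ratios of -0.09 for greater and 1.21 for less weight loss had opposite signs.

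For 16 genes of methylamine, choline and sulfur metabolism a value was present on all 4 arrays. Of these, 0 were called and 5 had a mean above 0, with a median of -0.04. Nnmt, which methylates nicotinamide, had the largest ratio with 0.42 ± 0.07. Bhmt, which methylates homocysteine with betaine, had -0.20 ± 0.01 (SD, n = 2 pools).

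**Figure D4:**
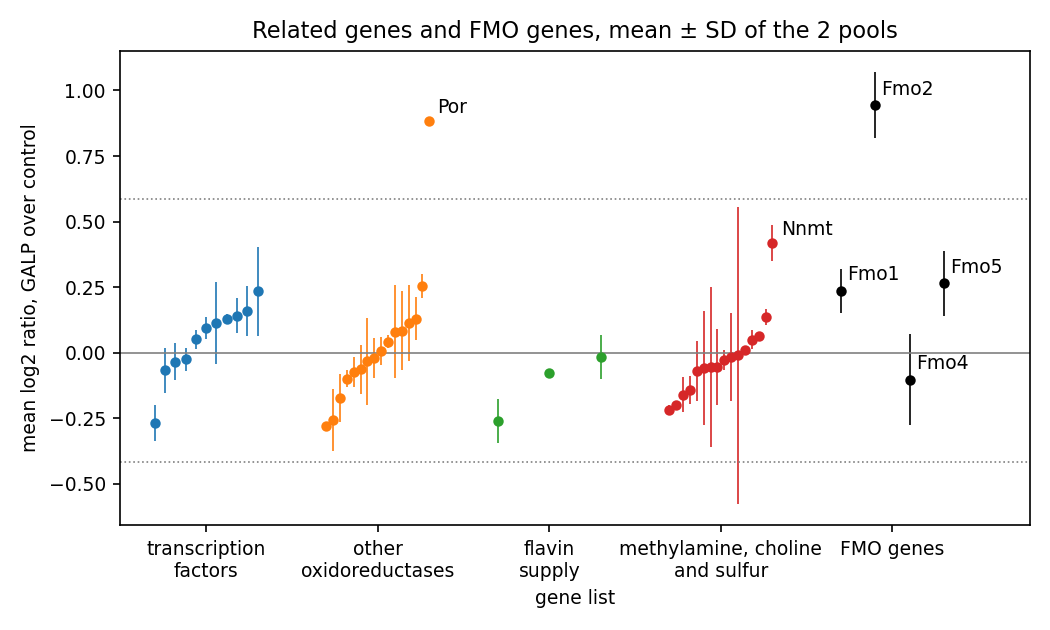
Mean log2 ratio of GALP over control (points) ± SD of the 2 pools (bars) for the genes of each list with signal in all 8 channels, and for the brightest probe of the 4 FMO genes in black. Dotted lines mark folds of 1.5 and 0.75. Por and Fmo2 are the points above the fold of 1.5.

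Marker genes were used to check the tissue and the cells it held. Of 7 hepatocyte markers, 6 had a probe with a value on all 4 arrays, and all of these had signal in all 8 channels. Their summed signal was 166951 to 247951 in the control and 173271 to 252710 in the GALP channels. Of the 5 lung epithelium markers, 0 had signal in all 8 channels and 3 had none in any. Of 6 kidney tubule markers, 5 had no signal in any channel. The other, Aqp2, was well above background in 4 of 4 GALP and 4 of 4 control channels.

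The sums of adipocyte and of macrophage markers were higher in all GALP than in all control channels, while the sums of other liver cell types overlapped. Sinusoidal endothelium markers summed to 22318 to 31508 in the control and 21714 to 27492 in the GALP channels. For stellate cell markers the sums were 23903 to 30724 and 20988 to 33460, and for cholangiocyte markers 6877 to 7830 and 6124 to 10572. The 6 adipocyte markers summed to 7855 to 12397 in the control and 14681 to 17769 in the GALP channels. In this list 2 genes had signal in all 8 channels, Adipoq and Cidec, a lipid droplet gene that fatty liver also expresses, and Lep and Retn had none in any. Cidec alone had a control signal of 7692 to 12240, and without it the sum of the other 5 was 157 to 179 in the control and 148 to 217 in the GALP channels. Of the Kupffer cell and macrophage markers, 6 had a value on all 4 arrays. They summed to 20671 to 23262 in the control and 23614 to 28719 in the GALP channels. Marco was called among them, with 0.87 ± 0.25 (SD, n = 2 pools). The others were not called, with 0.55 ± 0.17 for Cd68, 0.43 ± 0.01 for Adgre1 and 0.14 ± 0.02 for Cd5l. Clec4f had -0.00 ± 0.16 and Vsig4 -0.07 ± 0.26. The part of these cells in the Fmo2 ratio was not tested.

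For each FMO gene, the named genes with the most similar ratios over the 4 arrays were sought among 10117 genes with signal, by the Euclidean distance of the log2 ratios. For Fmo2 probe 1 these were Usp2 (distance 0.52), Cidec (0.53) and Gm43305 (0.72). In both pools, each of them had a higher ratio with GALP in Cy3 than in Cy5, as did Fmo2 probe 1. Fmo2 probe 2 had the opposite order, so this likeness holds for probe 1 and its dye pattern only. For Fmo5 probe 1 they were Ifi27l2a (0.05), Cyp4f15 (0.06) and Ntrk2 (0.07), and for Fmo1 probe 1 Sec22c, Pnpla2 and Pkd1 (each 0.08). Msr1 (0.05), Vegfd (0.06) and Pcdh12 (0.08) were closest to Fmo4, and all 3 also had a ratio below -0.48 on the array of the pool with less weight loss with GALP in Cy3. The nearest genes lay farther from Fmo2 than from the other FMO genes. Only 0.111% of the probes with signal had a mean ratio at or above that of Fmo2 probe 1. Distances are larger where ratios are rare, so nothing is read from this difference.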

How the data were processed

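Liver RNA pools were compared on 4 dual-colour Agilent arrays of 1 slide. Per the file headers, the authors' Feature Extraction 12.0.3.1 subtracted background and normalized dyes by LOWESS (the submitters' notes name 11.0.1.1). The deposited files hold processed intensity per channel, the log10 ratio of Cy5 over Cy3 and its error-model p-value, besides marks for outliers and for signal well above background. The deposited series table, used as an alternative, holds log10 values that equal these ratios as GALP over control (within 0.0001) for 64.7% to 70.5% of spots per array. The files give a ratio of exactly 0 for 29.6% to 35.3% of spots. The medians of the table were -0.04 and -0.01 for greater and 0.00 and 0.00 for less weight loss (Cy5-GALP, then Cy3-GALP array), and how its other values were made is not given in the sources used here.

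Ratios were converted to log2 GALP over control by the dye labels. Outlier spots were left out, spots of a probe were averaged, as were both arrays of a pool, and the brightest probe stood for a listed gene. No FMO probe needed a limit, as each had signal in all 8 channels or in none. Calls used folds over 1.5 or under 0.75. limma 3.58.1 in R 4.3.3 (lmFit, eBayes, Benjamini-Hochberg) was fitted over all 41037 probes against 0 with 1 residual degree of freedom, and leaves out the spread of the control. Both procedures were tested on simulated data. For limma the planted changes were larger than any FMO ratio, so this does not show whether it would find changes as small as these. Python 3.11.15, numpy 2.4.6, pandas 2.3.3, matplotlib 3.10.9 were used.

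The members and lists were chosen with earlier results of these data known. Named were all FMO probes, list genes that were called or else the 3 with the largest ratio (1 of which is not reported here), and the 3 most similar genes. The alternatives were other p rules, outlier spots kept, normexp with loess, centring, the series table, a filter on dim probes, either dye orientation alone, leaving out a pool, and an intensity trend. The offset of 0 was added after the values were seen.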

Additional observations from a re-analysis of the deposited data

How the results depend on the processing

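The FMO count of 0 higher probes became 2 with the p-value asked for on at least 1 array of each pool, 2 with no p-value rule, and 1 with the arrays of either dye orientation alone, and 1 to 1 when a pool was left out. It stayed 0 with normexp, centring, the series table and outlier spots kept, and 0 FMO probes were called lower under any setting. Centring, the series table and the kept outlier spots left the ratios of the FMO probes with signal the same. The unchanged count under these settings therefore shows nothing further. Over all probes, the 24 higher and 54 lower became 53 and 167 when 1 such array in each pool was enough, 154 and 360 with no p-value rule, 8 and 27 with normexp and loess, 134 and 140 with Cy5-GALP arrays only, 140 and 156 with Cy3-GALP arrays only, and 96 to 122 and 150 to 162 with a pool left out. limma gave 17 higher and 27 lower with normexp and loess and 1 lower with dim probes left out. For Fmo2 probe 1 the log2 ratio was 0.52 with normexp, 0.58 with GALP in Cy5 only and 1.31 with GALP in Cy3 only. Over the 9 other settings it was between 0.18 and 0.30 for Fmo1 probe 1, between 0.18 and 0.35 for Fmo5 probe 1 and between -0.24 and 0.04 for Fmo4, which changed sign in 2 of them. Centring moved no FMO ratio, because the median over all spots was 0 on each array. Each ratio pairs the GALP and control channels of 1 array. No analysis across mice was possible, because the labels give no replicate numbers and each weight loss group is 1 pool. With 2 pools against 1 control pool, differences between mice cannot be estimated.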
